A study of Mus musculus with 24 samples.

Results

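The core circadian clock genes were taken as 10 genes given by name, matched by symbol to the Ensembl identifiers of the count table, and all 10 were found among its 55416 genes. They are Arntl (also called Bmal1) and Clock of the activating arm, Per1, Per2, Per3, Cry1 and Cry2 of the repressing arm, the nuclear receptors Nr1d1 and Nr1d2, and the output factor Dbp. RNA was sequenced from the gastrocnemius, a calf muscle, of 24 mice, with 1 library per mouse. Their strain is given in the labels as C56BL6J and in the study's methods as C57BL/6J. The groups were formed by sex and housing, namely male sham (n = 6), male SMC (n = 6), female sham (n = 6) and female SMC (n = 6). SMC mice lived for 8 weeks in a small mouse cage that restricted their movement, and sham mice stayed ambulatory. The labels give no genotype or age beside the strain, and per the study's methods the mice were bought as young adults, lived in a regular light and dark cycle and had food withdrawn for some hours before the tissue was taken. The hour of collection of each mouse is not given in the sources used here.

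The clock of a mammalian cell is a feedback loop of transcription. The proteins of Arntl and Clock bind together to E-boxes and switch on the Per and Cry genes, Nr1d1, Nr1d2 and Dbp. The PER and CRY proteins then return to the nucleus and block that activation, while the NR1D1 and NR1D2 proteins repress Arntl at ROR elements. The RNA of Arntl and the RNA of many, though not all, of its targets therefore peak at opposite times of day in tissues with a running clock, skeletal muscle among them. Dbp, itself a transcription factor, carries the rhythm to further genes through D-boxes, where the repressor encoded by Nfil3 competes with it.

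Promoter sequences were searched for these elements, since some members moved in opposite directions from mouse to mouse. RefSeq windows of 300 bases (250 before and 50 after the start of transcription, build GRCm38.p6) were present for 9 of the 10 members, Per2 being the exception. The letters searched, on both strands, were the E-box CACGTG, which is held by 7.15% of all 32851 windows, its variant CACGTT, held by 4.68%, the ROR element core TAGGTCA, held by 2.61%, and the D-box TTATGTAA, held by 0.938%. Among the 9 members the E-box was found in Per1 and Cry1, the variant in Cry1, Cry2 and Nr1d1, the ROR element core in Arntl, and the D-box in Per3, which held 2 copies. In Clock, Nr1d2 and Dbp none of these letters occurred in any window. Arntl and Per1 had 2 windows each, of which 1 held the match, and Clock had 3. The Per1 window with the match lay inside the gene, whose annotated start is chr11:69095217. Stretches that hold a match in Arntl, Nfil3, Per3, Per1, Cry1 and Bhlhe41 are printed below. They read 5′ to 3′ on the strand of the gene, with the motif or its reverse complement in capitals. The coordinates are chr7:113207526-113207555 (plus strand) for Arntl, chr13:52981040-52981089 (minus) for Nfil3, chr4:151044806-151044885 (minus) for Per3, chr11:69098759-69098818 (plus) for Per1, chr10:85185095-85185154 (minus) for Cry1 and chr6:145865541-145865600 (minus) for Bhlhe41.
Arntl, ROR element core: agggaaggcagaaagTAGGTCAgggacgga
Nfil3, ROR element core: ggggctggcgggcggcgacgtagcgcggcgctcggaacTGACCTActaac
Per3, D-boxes: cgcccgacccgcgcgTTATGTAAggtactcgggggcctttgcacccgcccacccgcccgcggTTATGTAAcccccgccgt
Per1, E-box: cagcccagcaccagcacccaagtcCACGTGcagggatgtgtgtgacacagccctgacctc
Cry1, E-box and variant: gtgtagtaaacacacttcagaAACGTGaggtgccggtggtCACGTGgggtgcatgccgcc
Bhlhe41, E-box: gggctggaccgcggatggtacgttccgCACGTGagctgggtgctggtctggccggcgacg

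The libraries held 23026627 to 36880413 counts, and the levels of Xist and Ddx3y fitted the sex in the label for 24 of 24. All 10 members passed the filter on low counts, as did 16408 genes in all. Levels are given as CPM, the usual scaling of counts to library size, with TMM factors (a correction for library composition), and fold changes as log2 with their standard error (SE). SMC was compared with sham by edgeR's quasi-likelihood test, with a false discovery rate (FDR) under 0.05, adjusted over the 16408 genes, as the threshold. Male sham mouse 4 and female sham mouse 7 stood apart in slow fibre genes, with summed levels of 62.6 and 54.5 CPM, beside medians of 1454 and 1919 CPM in male and female sham. The defining genes of muscle were abundant in every group, with a summed level of Acta1, Ckm, Myh4, Myh1, Myh2 and Ttn of 141400 to 368300 CPM over the mice. In bulk tissue, fewer cells of a type and less RNA per cell cannot be told apart.

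Compared per kilobase of exon, Nr1d1 was the most abundant member, with group means of 58.8 to 75.0 CPM per kilobase. Nr1d2 (20.4 to 22.3), Per1 (17.2 to 25.4) and Dbp (16.6 to 31.9) came next, and their ranges of group means overlapped. Cry2 followed at 7.59 to 8.85 CPM per kilobase, then Per3 at 4.59 to 7.49, a range that overlapped that of Arntl (2.81 to 4.96). Clock (3.78 to 4.45) and Per2 (2.67 to 4.41) overlapped with Arntl and with each other, and Cry1 (2.66 to 3.08) overlapped with Arntl and Per2 but lay below Clock in every group. Levels between genes were compared on this scale only, and the values that follow are CPM, not divided by length.

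Arntl, the partner that gives the activating complex its rhythm, varied several-fold among mice of the same group. Its level ran from 12.7 CPM (median 20.01) to 49.8 CPM in male sham and from 15.6 CPM (median 30.01) to 40.6 CPM in male SMC. In females it ran from 18.4 CPM (median 30.6) to 62.1 CPM in sham and from 5.41 CPM (median 16.8) to 39.7 CPM in SMC. The 3 lowest mice of the series, numbers 19, 20 and 22, were all female SMC, at 5.41, 9.09 and 9.87 CPM, while the other 3 female SMC mice lay within the range of sham. The log2 fold change with SMC was 0.12 (SE 0.449, FDR 0.956) in males and -0.81 (SE 0.451, FDR 0.483) in females, so that neither passed. Clock, the other activating partner, varied far less, from 47.5 to 68.7 CPM in male sham, 43.4 to 62.0 in male SMC, 52.2 to 75.1 in female sham and 42.4 to 62.9 in female SMC. Its log2 fold change was 0.02 (SE 0.122) in males and -0.23 (SE 0.122, FDR 0.441) in females.

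The period genes showed wide ranges and no called change. Per3 ran from 24.5 to 70.4 CPM (median 56.2) in male sham and from 28.1 to 69.5 CPM (median 56.8) in male SMC. In females it ran from 18.9 to 68.2 CPM (median 46.6) in sham and from 35.1 to 103 CPM (median 72.6) in SMC. The female SMC mice 19, 20 and 22 again stood out and lay above all female sham mice, and the groups overlapped. Its log2 fold change in females was 0.71 (SE 0.328, unadjusted p = 0.0416, FDR 0.374), and in males 0.10 (SE 0.326). Per2 ran from 7.47 to 36.6 CPM in male sham, 7.30 to 25.5 in male SMC, 9.57 to 29.6 in female sham and 10.2 to 42.2 in female SMC. Its log2 fold change was -0.56 (SE 0.376) in males and 0.54 (SE 0.375) in females, and the test of the difference between the sexes gave an unadjusted p of 0.0505 (FDR 0.955). Per1, which also answers to glucocorticoids, lay at 76.2 to 180 CPM in male sham, 74.2 to 145 in male SMC, 81.9 to 193 in female sham and 50.7 to 199 in female SMC. With SMC it differed by -0.23 (SE 0.275) in males and -0.02 (SE 0.275) in females.

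Of the cryptochromes, the direct inhibitors of the activating complex, Cry1 was the steadiest member. It measured 10.1 ± 1.02 CPM in male sham, 9.48 ± 1.25 in male SMC, 10.3 ± 1.36 in female sham and 8.87 ± 1.13 in female SMC (SD, n = 6 each). In females 4 of the 6 SMC mice lay below all female sham mice, with a log2 fold change of -0.21 (SE 0.104, unadjusted p = 0.04997, FDR 0.400), and averaged over the sexes it was -0.15 (SE 0.0734, FDR 0.283). Without TMM scaling, under which the median of all genes moved by -0.13, the averaged value of Cry1 was -0.29 and passed at an FDR of 0.0488. Cry2 measured 55.9 ± 22.3 CPM in male sham, 48.0 ± 9.53 in male SMC, 54.3 ± 14.1 in female sham and 54.3 ± 10.1 in female SMC. Male sham mouse 4 alone reached 101 CPM, with the other 5 between 42.5 and 51.9, and the male log2 fold change of -0.22 (SE 0.196) became 0.02 without it.

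The nuclear receptors that repress Arntl did not pass the test either. Nr1d1 ran from 119 to 237 CPM (median 182) in male sham and from 184 to 278 CPM (median 235) in male SMC. All 6 male SMC mice lay above the male sham median and 3 above every male sham mouse, with a log2 fold change of 0.35 (SE 0.223, FDR 0.602). In females it ran from 85.6 to 281 CPM in sham and from 142 to 271 CPM in SMC, a difference of 0.00 (SE 0.223). Part of the Nr1d1 exon sequence, 8.55%, lies antisense to exons of Thra, and whether counting used the strand is not given in the sources used here. Nr1d2 was narrow in range, at 95.04 to 144 CPM in male sham, 100.2 to 124 in male SMC, 87.8 to 127 in female sham and 96.3 to 143 in female SMC. Its log2 fold changes were -0.10 (SE 0.121) and 0.13 (SE 0.121) in males and females.

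Dbp, the direct output of the loop, had the widest range of the 10. It ran from 23.2 to 95.2 CPM (median 78.4) in male sham and from 22.6 to 105 CPM (median 80.7) in male SMC. In females it ran from 7.12 to 94.99 CPM (median 47.5) in sham and from 28.4 to 160 CPM (median 104) in SMC. Female sham mice 8 and 12 were the lowest of the series, at 7.12 and 8.23 CPM, and the same mice were the highest in Arntl. Female SMC mice 19, 20 and 22 were the highest, at 160, 123 and 133 CPM, and the same mice were the lowest in Arntl. The log2 fold change was 0.12 (SE 0.532) in males and 0.94 (SE 0.537, 95% interval -0.17 to 2.05, FDR 0.501) in females. On the opposite strand, 539 bases of Dbp exon sequence overlap exons of Sphk2, which had 10892 counts over the 24 libraries against 47590 for Dbp.

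**Figure D1:**
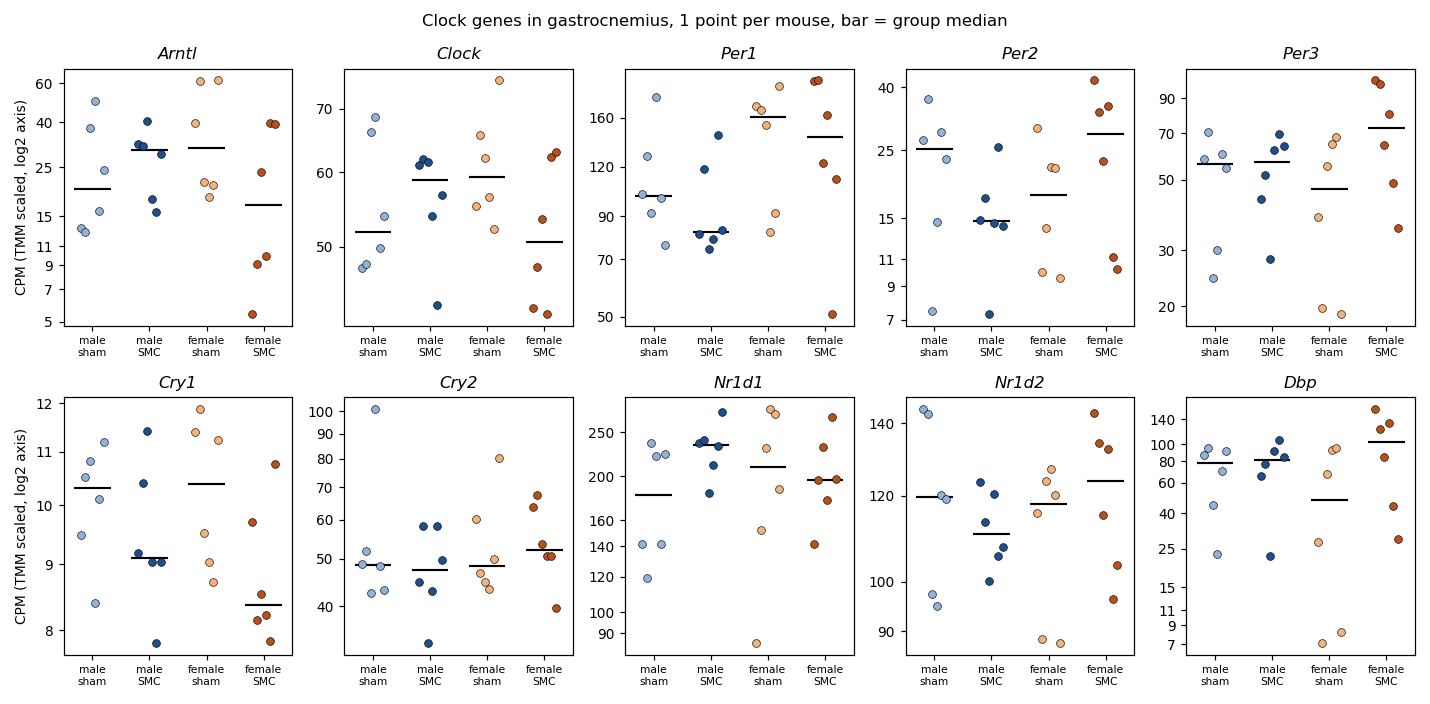
CPM of each clock gene (vertical axes, log2 scale, 1 panel per gene) in each of the 24 mice by group, with the group median as a bar. SMC and sham overlap in both sexes in every panel, and Dbp spans 7.12 to 160 CPM while Cry1 stays between 7.82 and 11.9 CPM.

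Counted over the list, 0 of the 10 members were called in any of 5 comparisons. In males 0 were called, as were 0% of all tested genes, and 0 members had an unadjusted p under 0.05, against 11% of all genes. In females 0 were called (0.341% of all genes), and 2, Per3 and Cry1, had an unadjusted p under 0.05 (12.5% of all genes). Averaged over the sexes 0 were called (2.36% of all genes), and 1, Cry1, had an unadjusted p under 0.05 (17.5%). The difference of the SMC response between the sexes gave 0 members (0% of all genes called) and 0 at an unadjusted p under 0.05 (5.13%). Males against females, averaged over housing, gave 0 called (4.93%) and 1, Per1, with an unadjusted p under 0.05 (19.3%), at a log2 difference of -0.44 (SE 0.195, FDR 0.207), lower in males. The 6 SMC and 6 sham mice overlapped for all 10 members in males and in females, where 0.902% and 1.03% of all genes did not overlap. DESeq2 called 0 members in each of the 5 comparisons as well. The median log2 fold change of the members was -0.0343 in males and 0.0015 in females, beside -0.00441 and -0.0110 over all genes tested. The intervals were wide for the members that varied most, and for Dbp in males the 95% interval ran from -0.98 to 1.21.

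**Figure D2:**
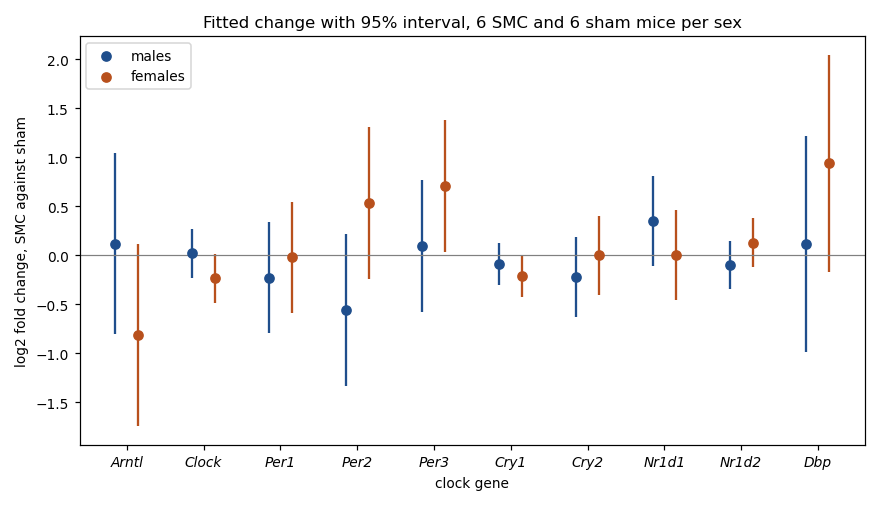
Fitted log2 fold change of SMC against sham (vertical axis) for each clock gene in males and females, with 95% intervals from the edgeR fit as lines. Arntl in females sits at -0.81 and Dbp at 0.94, with intervals that include 0, and Per3 in females is the member whose interval lies wholly above 0 before adjustment.

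The spread within groups differed widely among the members. The within-group SD of log2 CPM was 1.14 for Dbp, at the percentile 99.0 of all tested genes, and 0.873 for Arntl, at 97.4. Per2 followed at 0.748 (percentile 95.2), Per3 at 0.648 (91.7), Per1 at 0.538 (84.6), Nr1d1 at 0.433 (74.1) and Cry2 at 0.353 (64.1). Clock (0.221, percentile 41.7), Nr1d2 (0.219, 41.4) and Cry1 (0.177, 29.5) lay below the median of all tested genes, which was 0.261. Among the 7883 genes with a mean log2 CPM of at least 3, as every member had, the median was lower, at 0.166. Against those genes Clock lay at the percentile 72.2, Nr1d2 at 71.8 and Cry1 at 55.7, all above the median. Nr1d1 lay at 94.1 and Cry2 at 90.2 there.

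The phases were then compared within each mouse, as the log2 level of Dbp minus that of Arntl. These differences were not tested, since they combine members chosen for their opposite phase. They are in CPM not divided by length (exons of 2993 bases in Dbp and 7523 in Arntl), so that only their order and spread across mice can be read, and 0 is no boundary. In male sham the values ran from -1.10 to 2.90 (median 2.04) and in male SMC from -0.85 to 2.75 (median 1.43). Female sham ran from -3.10 to 2.33 (median 0.55). Female SMC ran from -0.47 to 4.87 (median 2.79). Female sham mouse 8 and female SMC mouse 19 were the extremes. The group means were 1.47 ± 1.57 in male sham, 1.36 ± 1.26 in male SMC, -0.06 ± 2.50 in female sham and 2.31 ± 2.15 in female SMC (SD, n = 6), and both pairs of groups overlapped. Per3 minus Arntl was highest in the same mouse, female SMC mouse 19 (4.23), and lowest in female sham mouse 12 (-1.71), followed by mouse 8 (-1.64).

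**Figure D3:**
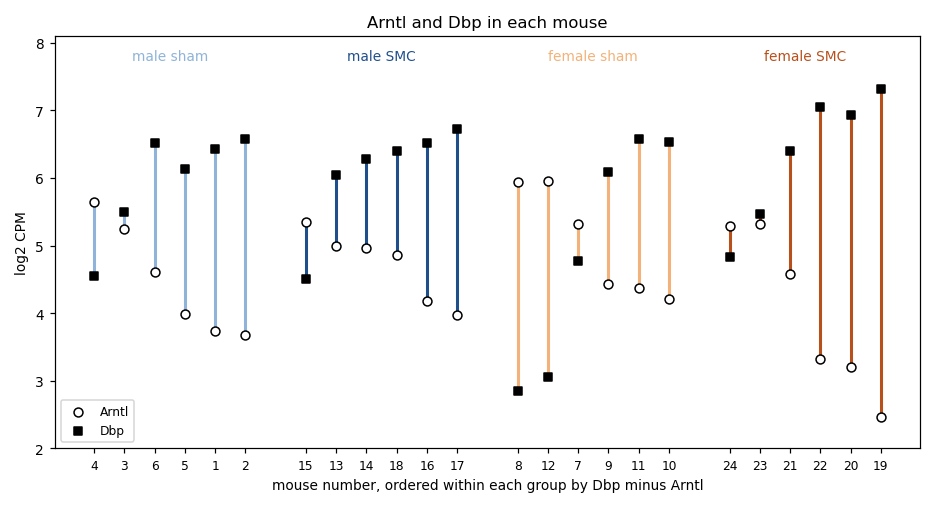
Log2 CPM (vertical axis) of Arntl (open circles) and Dbp (squares) joined by a line for each mouse, with mice ordered within groups by Dbp minus Arntl. Where Arntl is high Dbp is low, from female sham mouse 8 (-3.10) to female SMC mouse 19 (4.87). Levels are not divided by length, so the point where the symbols cross has no meaning of its own.

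Across the 24 mice, 5 of the other 9 members followed Arntl after each group was centred on its own mean. Clock rose and fell with Arntl (r = 0.89, Spearman's rho 0.85), and Per3 (r = -0.89, rho -0.91), Nr1d2 (r = -0.88, rho -0.87), Dbp (r = -0.85, rho -0.89) and Per2 (r = -0.81, rho -0.79) ran opposite to it. In a two-sided permutation test within groups (100000 resamples, Benjamini-Hochberg over the 9 genes), the adjusted p was 2.25e-05 for r and for rho in Clock, Per3, Nr1d2 and Dbp, whose raw p of 1e-05 is the smallest these resamples can give. For Per2 the adjusted p was 0.000108 for r (raw p = 6e-05) and 0.000306 for rho (raw p = 0.00017). Without the 2 mice farthest from the median of Arntl, r was 0.88 for Clock, -0.91 for Per3, -0.85 for Nr1d2, -0.87 for Dbp and -0.78 for Per2. The 24 points share the libraries in which both genes were counted, and the same 5 genes passed when TMM scaling was left out.

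The 4 members whose relation with Arntl did not pass were Cry1, Per1, Nr1d1 and Cry2. Their r was 0.33 for Cry1 (rho 0.36, adjusted p = 0.207 by permutation), -0.22 for Per1 (rho -0.16, adjusted p = 0.477), 0.19 for Nr1d1 (rho 0.17, adjusted p = 0.477) and 0.03 for Cry2 (rho -0.10, adjusted p = 0.891). Mice with like Arntl differed in Nr1d1, as in female sham mouse 7 and female SMC mouse 23, both with Arntl at 39.7 CPM, which had the lowest Nr1d1 of the series, 85.6 CPM, and 271 CPM. Female sham mouse 10 had the highest Nr1d1, 281 CPM, with Arntl at 18.4 CPM. Cry1 would have passed without male sham mouse 4 (r = 0.51).

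**Figure D4:**
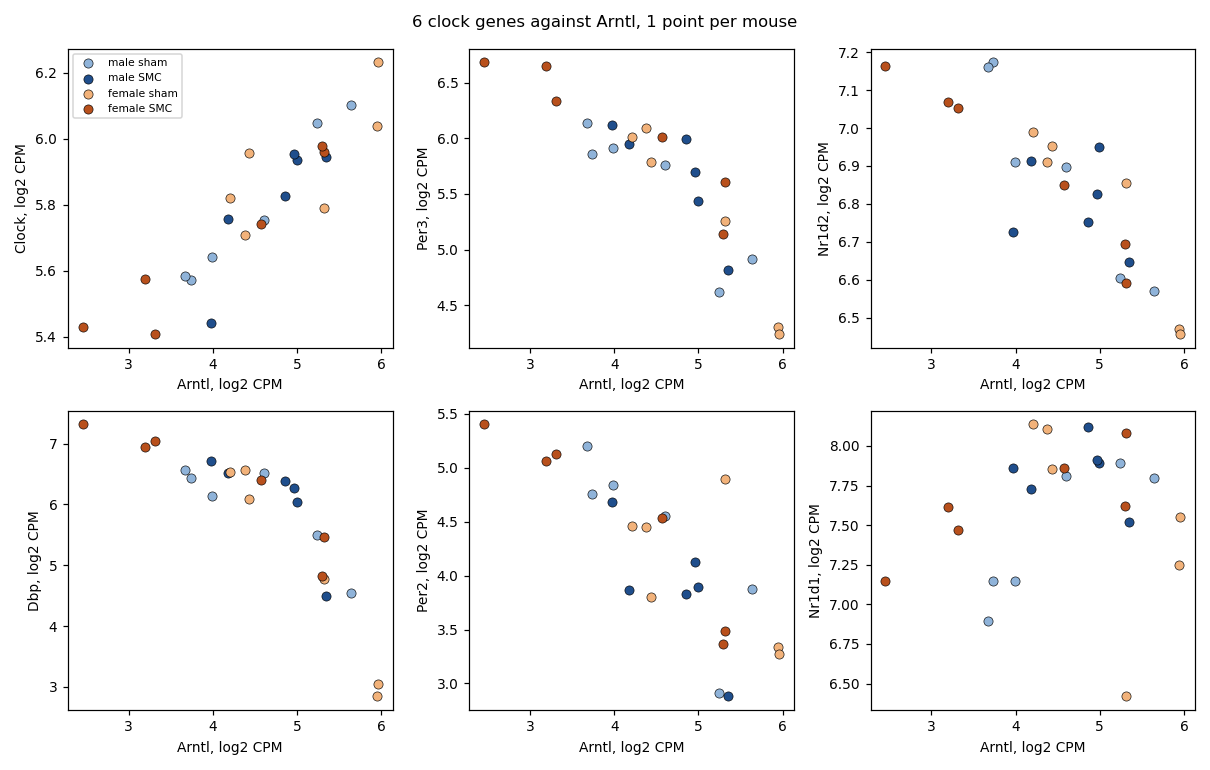
Log2 CPM of 6 clock genes (vertical axes) against log2 CPM of Arntl (horizontal axes), 1 point per mouse, coloured by group and not centred. Clock rises with Arntl, Per3, Nr1d2, Dbp and Per2 fall, and Nr1d1 follows no single direction (r = 0.19 after centring).

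Within the single groups of 6 mice, an exact permutation test can give no p below 0.00278. Per3 ran opposite to Arntl in all 4 groups, with r from -0.98 to -0.81, and so did Dbp, with r from -0.99 to -0.76. Clock was positive in all 4 groups (r from 0.72 to 0.99) and Per2 negative in all 4 (r from -0.96 to -0.59). Nr1d2 was negative in 4 of 4, but weakly in male SMC, at -0.20 (exact p = 0.667), beside -0.96, -0.94 and -0.98 in male sham, female sham and female SMC. Per1 changed sign between groups, with r = 0.82 in female sham (exact p = 0.00833) and -0.85 in female SMC (exact p = 0.00556). Nr1d1 did so too, at 0.90 in male sham, -0.16 in male SMC, -0.62 in female sham and 0.82 in female SMC.

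Among the other 36 pairs of members, 11 passed an adjusted p of 0.05, of which 7 were positive and 4 negative. The closest pair was Per3 and Dbp (r = 0.95, rho 0.93, adjusted permutation p = 6e-05 for r and 0.00024 for rho). Clock ran opposite to Per2 (r = -0.88), Per3 (-0.83), Nr1d2 (-0.76) and Dbp (-0.75). Per2, Per3, Nr1d2 and Dbp were all positively related to each other, in 6 pairs with r from 0.74 to 0.95. The seventh positive pair was Per1 with Cry2 (r = 0.65, rho 0.71, adjusted permutation p = 0.00164). The map of correlations therefore held a block of Arntl and Clock, an opposite block of Per2, Per3, Nr1d2 and Dbp, and a pair of Per1 and Cry2 outside both.

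**Figure D5:**
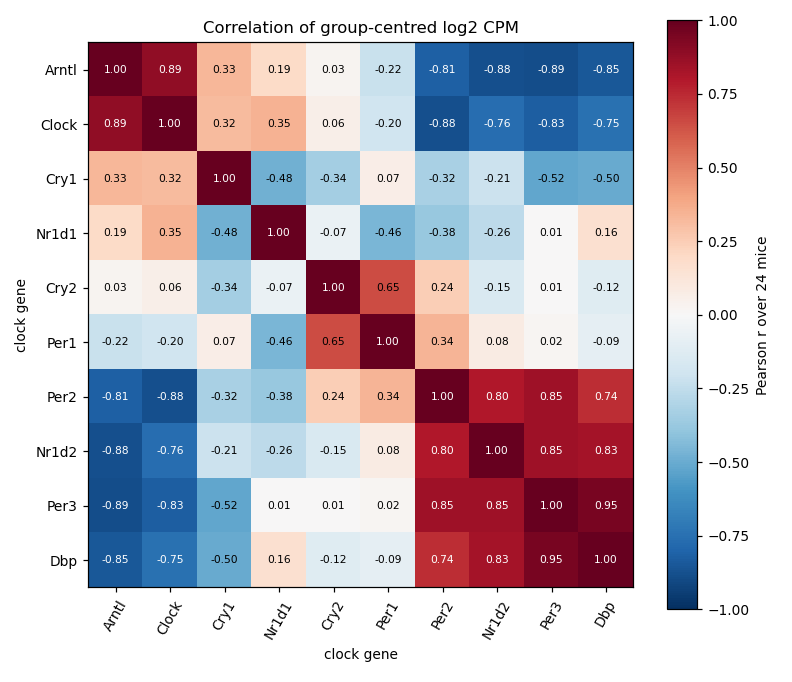
Pearson r between the 10 clock genes over 24 mice (log2 CPM centred on group means), with genes on both axes and r printed in each cell. Arntl and Clock are positive with each other (0.89) and negative with Per2, Nr1d2, Per3 and Dbp, which are positive among themselves.

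Of 22 further clock genes, 21 were tested, and Fbxl21, with 138 counts over all libraries, was not. In males 0 of 21 were called (0% of all genes), in females 1 (0.341%) and averaged over the sexes 1 (2.36%). For the sex difference in response 0 were called (0%). The gene called was Bhlhe41, a repressor that acts on E-boxes and whose own promoter window holds the E-box printed above. It ran from 51.5 to 82.7 CPM (median 64.3) in male sham and from 81.2 to 109 CPM (median 88.2) in male SMC. In females it ran from 25.4 to 45.5 CPM (median 38.4) in sham and from 41.8 to 91.9 CPM (median 59.5) in SMC, and in each sex 5 of 6 SMC mice lay above all sham mice. Bhlhe41 rose by a log2 fold change of 0.75 in females (SE 0.163, FDR 0.0473) and of 0.62 averaged over the sexes (SE 0.115, FDR 0.0076), while the male value was 0.48 (SE 0.161, FDR 0.270). The female call was lost without TMM factors (FDR 0.0587), with limma's sample weights (0.0876), with only the female libraries (0.160) and in 19 of 24 fits that left out 1 library, whereas the averaged call held in each of these 24 fits and under every other alternative tried, at an FDR of at most 0.0159. From mouse to mouse Bhlhe41 ran opposite to Arntl (r = -0.69) and with Dbp (r = 0.71), both over 24 libraries and centred on group means, and the part of this variation in the SMC difference was not tested. Its relative Bhlhe40 differed in the same direction without a call, by 0.47 (SE 0.195, FDR 0.300) in females and 0.28 (SE 0.195) in males. In females all 6 SMC mice (130 CPM and up) lay above all 6 sham mice (up to 128 CPM), where 1.03% of all genes did not overlap. In males SMC and sham overlapped.

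Other genes of this list had small p-values but no call in the SMC comparisons. Nfil3 gave -1.43 in females (SE 0.440, FDR 0.140), where 4 of 6 SMC mice lay below all sham mice, and -0.15 (SE 0.437) in males. Csnk1e, a kinase of the PER proteins, gave 0.29 (SE 0.103, FDR 0.202) in females. Arntl2, a relative of Arntl, gave 0.47 (SE 0.183, FDR 0.333) in males, and Timeless gave 0.39 (SE 0.206, FDR 0.504). Wee1, a cell cycle kinase known to be driven by the clock, gave -0.68 (SE 0.313, FDR 0.417) in males and 0.54 (SE 0.301, FDR 0.485) in females. Between the sexes, averaged over housing, Bhlhe41 was higher in males by 0.69 (SE 0.115, FDR 4.48e-04) and Wee1 lower by a log2 difference of -0.79 (SE 0.217, FDR 0.0343), a call lost without TMM factors (FDR 0.0852), with limma's sample weights (0.0699) and in 11 of 24 fits that left out 1 library.

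The genes most like Arntl and Dbp from mouse to mouse were taken from 13306 tested genes with a symbol and a mean log2 CPM of at least 0, and are a description of these 24 libraries. Npas2, which can take the place of Clock as partner of Arntl, was the most like Arntl (r = 0.93), followed by Asb2 (0.91), and Gm26885 (0.87) was also among the first 5. The most opposite were Tspan4 (-0.90), Stk35 (-0.89), 1810059H22Rik (-0.85), Mum1 (-0.82) and Fmo1 (-0.82). For Dbp the most alike were 5930430L01Rik (0.93), Gstt2 (0.84), 1810059H22Rik (0.82), Pdcd4 (0.82) and Tspan4 (0.81). The most opposite was Nfil3 (-0.96), the repressor that competes at D-boxes, and Kdm4a (-0.89), Tinagl1 (-0.87) and Sdc4 (-0.86) were also among the first 5. The central 95% of the 13306 genes lay between -0.56 and 0.57 for Arntl. Of the D-box factors related to Dbp, Hlf had r = 0.73 and Tef 0.67 with Dbp. Nfil3 itself ran from 13.4 to 42.9 CPM in male sham, 11.2 to 37.6 in male SMC, 18.1 to 113 in female sham and 11.2 to 36.3 in female SMC, and was highest in female sham mice 8 and 12, which had the lowest Dbp.

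Genes that the clock is known to drive in muscle, 9 in number, held 0 calls in males, 1 in females and 2 averaged over the sexes. The shares of all tested genes called in these comparisons were 0%, 0.341% and 2.36%. Cdkn1a, an inhibitor of the cell cycle, had the smallest p in males, at -1.72 (SE 0.393, FDR 0.0930). It was lower with SMC averaged over the sexes, by a log2 fold change of -1.65 (SE 0.275, FDR 0.00363), and ran opposite to Dbp (r = -0.83) across mice. Ucp3, a mitochondrial carrier, was lower in females by -1.13 (SE 0.251, FDR 0.0496) and averaged over the sexes by -0.74 (SE 0.176, FDR 0.0261). Myod1, the muscle master regulator, differed between the sexes only, higher in males by 0.44 (SE 0.113, FDR 0.0218), as Cdkn1a was lower in males by -0.97 (SE 0.271, FDR 0.0379). Leaving out 1 library at a time ended the female call of Ucp3 in 21 of 24 fits and the sex call of Cdkn1a in 15. The female and averaged calls of Ucp3 were lost with limma's sample weights, the female one also with only the female libraries, and the call of Myod1 without TMM factors. DESeq2 called Cdkn1a in both sexes.

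Genes that answer to cues known to set or shift the clock were read in the same fit. Of all tested genes, 0% were called in males, 0.341% in females and 2.36% averaged over the sexes. Of 6 glucocorticoid genes, 2 were lower averaged over the sexes, Fkbp5 by -1.41 (SE 0.297, FDR 0.0142) and Klf15 by -0.57 (SE 0.153, FDR 0.0480). All 6 had negative values in both sexes, with 0 calls within a sex, where Fkbp5 had the smallest p (FDR 0.227 in males and 0.111 in females), and the averaged call of Klf15 was lost in 16 of 24 fits that left out 1 library, with no filter and without male sham mouse 4 and female sham mouse 7. Fkbp5 was called in females by DESeq2 and without TMM factors. Of 3 fasting genes, 2 were lower in females and averaged over the sexes, namely Ucp3 and Pdk4, which spares glucose and gave -1.12 (SE 0.251, FDR 0.0496) in females and -0.82 (SE 0.176, FDR 0.0166) averaged. The female call of Pdk4 was lost in 20 of 24 such fits, with no filter, with limma's sample weights and with only the female libraries, and its male value was -0.51 (SE 0.248, FDR 0.456). Temperature genes (0 of 5) and immediate early genes (0 of 3) held no call in these comparisons. In males 1 and 0 of them had an unadjusted p under 0.05 (11% of all genes), and in females 0 and 0 (12.5%). The smallest p among them belonged in males to Hspa1b (-1.04, SE 0.486, FDR 0.434) and Fos (0.55, SE 0.640, FDR 0.814), and in females to Rbm3 (0.34, SE 0.214, FDR 0.550) and Egr1 (0.91, SE 0.554, FDR 0.538).

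Across mice, the mean level of the 3 fasting genes followed Arntl (r = 0.65, rho 0.67) and ran opposite to Dbp (r = -0.63, rho -0.67), each with an adjusted permutation p of 0.0455 for r and 0.0377 for rho over 28 relations (raw p for r 0.00325 and 0.00218). Without the 2 mice farthest from the median these were 0.55 and -0.61. Taken singly, without a test, Angptl4 gave r = 0.66 with Arntl and -0.55 with Dbp. Pdk4 gave 0.47 and -0.455, and Ucp3 gave 0.35 and -0.44. The glucocorticoid genes, with Per1 left out as a member, gave r = 0.54 with Arntl (rho 0.55, adjusted permutation p = 0.0731). With Dbp they gave -0.59 (rho -0.63, adjusted permutation p = 0.0777). Total counts gave r = 0.26 with Arntl and -0.23 with Dbp (adjusted p = 0.655 and 0.602 by permutation). The slow fibre genes gave -0.30 and 0.22, and no list of adipocyte, red blood cell, endothelial, macrophage, fibroblast, Schwann cell, tendon or skeletal muscle markers passed with either gene, the smallest adjusted p being 0.337. The part of these lists in the levels of the clock genes was not tested.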

How the data were processed

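The authors isolated total RNA from gastrocnemius, removed ribosomal RNA, made directional libraries and assigned reads to Ensembl genes. They deposited raw counts, 1 column per mouse, without normalization. The submitters' processing notes name cutadapt 1.16, STAR 2.7.9a, featureCounts 1.6, DESeq2 1.34.0 and the build GRCm39, while the annotation release and strand setting are not given in the sources used here. Groups were taken from the labels. Symbols, exon lengths and overlaps came from GENCODE M21 (GRCm38), by gene identifier. Counts were filtered (filterByExpr), TMM scaled and fitted with 1 mean per group (edgeR 4.0.16, R 4.3.3), two-sided. Log2 CPM used a prior count of 2. Correlations used values centred on group means. The alternatives were DESeq2 1.42.0, no TMM factors, other filters, limma 3.58.1 with sample weights, fewer libraries, a prior count of 0.5 and leaving out each library. Over 60 pairs of libraries within groups, chi-square per degree of freedom was at least 10.7, so none agreed within sampling noise. Depth limits low genes most, and counts carry sampling error beside the spread between mice, both of which enter the fit. Nothing in the labels ties mice to litters or cages. The clock genes and all other lists were chosen with earlier results of these data known. Named genes were the 10 members, other clock genes past the threshold or among the 5 smallest p in an SMC comparison, genes of the muscle and cue lists past the threshold or with the smallest p, and the 5 most and least like Arntl and Dbp. A few genes that this rule names are not reported here. Code was tested on simulated data.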

Additional observations from a re-analysis of the deposited data

Results flagged for a closer look

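Cry2, a repressor of the clock, reached 101.0 CPM in male sham mouse 4, where the other 5 male sham mice lay between 42.5 and 51.9 CPM. On the log2 scale the gap to the nearest mouse was 0.768 of the range of the group, above the limit of 0.625 for 6 samples. The same mouse was low in slow fibre genes. Dbp, the output factor, was at 22.58 CPM in male SMC mouse 15, where the other 5 male SMC mice lay between 66.0 and 105 CPM, a gap of 0.696 of the range. That mouse also had the highest Arntl of its group, at 40.6 CPM, and the lowest Per3, at 28.1 CPM. In all 44 sets of 6 values were examined in this way, 2 were flagged, and chance flags about 1 in 20, or 2.2.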

How the results depend on the processing

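No paired analysis was made, because the replicate numbers run on from group to group and tie no sham mouse to an SMC mouse. The paper reports paired housing of sham and SMC mice for some of its experiments, without naming which. Of the 1520 log2 fold changes of the 10 members under the alternatives, 1 was called, that of Cry1 averaged over the sexes without TMM factors, and 128 had another sign than the reported value, none of which was called. A change of sign smaller than the reported SE was not counted as a reversal. Those larger were Cry2 without male sham mouse 4 and female sham mouse 7 (0.0203 in males and 0.0285 averaged) and Nr1d2 (-0.12 averaged) without TMM factors, beside Csnk1e (-0.0181 in males) and Myod1 (-0.0798 averaged) there. Without TMM factors the median of all genes moved by -0.13 in males, -0.14 in females and -0.13 averaged.

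Calls of all genes were 0 in males, 56 in females and 388 averaged. DESeq2 gave 133, 268 and 778, and 1 for the difference between the sexes in response against 0 (841 at an unadjusted p under 0.05). No TMM factors gave 215 in females and 1861 averaged, with 3.65% of the averaged calls higher in SMC against 43.6%, and 6.05% of the female calls against 35.7%. Limma gave 93 in males, 16 in females and 1420 for males against females (809 reported), no filter gave 189 averaged, and the female libraries alone gave 14. The fit without male sham mouse 4 and female sham mouse 7 gave 155 in females and 1268 for males against females. Leaving out 1 library gave 0 to 78 in males (78 without male sham mouse 5), 0 to 147 in females (0 without female SMC mouse 22 or 23, 147 without female sham mouse 9), 236 to 501 averaged (236 without male sham mouse 1) and 0 to 1 for the difference in response.

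Of the further clock genes, 1 was called in females (0.341% of all genes), 1 averaged (2.36%) and 2 for males against females (4.93%). In females it was 0 without TMM factors, with limma and in the female libraries alone. Averaged it was 2 with DESeq2, with at least 10 counts in every library and without the 2 mice named above, 3 with limma and 7 without TMM factors. For males against females it was 4 with DESeq2 and 1 without TMM factors. Leaving out 1 library gave 0 to 1 in females, 1 to 2 averaged and 1 to 4 for males against females.

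Of the correlations with Arntl, 5 passed under every alternative over all groups and 5 to 6 when 1 mouse was left out. The other 4 changed sign in places, namely Per1 in male sham (0.30) and female sham (0.82), Cry1 in male sham (-0.31), Cry2 in male SMC (-0.50), in female SMC (-0.76) and without the 2 mice (-0.26), and Nr1d1 in male SMC (-0.16) and female sham (-0.62). With 1 mouse left out Cry2 ran from -0.24 (without male sham mouse 4) to 0.16, and its male log2 fold change from -0.29 to 0.0203. The SMC minus sham difference of Dbp minus Arntl was -0.11 in males (-0.63 to 0.33 with 1 mouse left out) and 2.37 in females (1.77 to 2.93). Why these values moved was not tested.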

Other observations

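Whether the relation of a member with Arntl differed between sham and SMC mice was examined after the values were seen, by an exact permutation test over the 924 relabelings of 12 mice of a sex (difference of Fisher-transformed r of centred values, Benjamini-Hochberg over 18 tests). Per1 in females gave -0.85 with SMC and 0.82 in sham (exact p = 0.00866, adjusted p = 0.0648). Nr1d1 in females gave 0.82 with SMC and -0.62 in sham (exact p = 0.0108, adjusted p = 0.0648). Dbp in females gave -0.93 with SMC and -0.99 in sham (exact p = 0.00433, adjusted p = 0.0648). In the 18 tests 0 passed after adjustment, and 5 had an unadjusted p under 0.05.

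Among genes of the glucocorticoid list, Zbtb16, a transcriptional repressor, ran closest with Arntl across the 24 mice (r = 0.84) and opposite to Dbp (-0.73), whereas Fkbp5, which was called averaged over the sexes, gave 0.32 and -0.43. Of the further clock genes and clock-driven muscle genes, those most opposite to Arntl were Wee1 (-0.70), Bhlhe41 (-0.69), Usp2 (-0.67), Pdp1 (-0.66), a phosphatase that activates pyruvate dehydrogenase, Hlf (-0.64) and Ciart (-0.62). These are values over the same libraries, without a test.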
